A study of Homo sapiens with 6 samples.

Results

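The ATF4 response was followed through 46 genes in T98G, a human glioblastoma line long kept in culture. The set holds ATF4 and transcription factors that work beside it, stress outputs, enzymes of amino acid synthesis, amino acid transporters, the tRNA exporter XPOT and 12 cytosolic aminoacyl-tRNA synthetases. The genes were listed by symbol, with older names allowed (AARS for AARS1), and all 46 were found among the 60483 gene identifiers of the count tables. Of these, 45 passed the filter on low counts, and ALDH1L2 did not.

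Poly(A) RNA was sequenced in 6 libraries, 2 in each of 3 groups, to ask how transcripts changed with more and with less SRPK1, a kinase of serine/arginine-rich splicing factors. The oeSRPK1 cells were transiently transfected by lipid reagent with full-length SRPK1 cDNA, itself copied from T98G RNA, in pcDNA3.1. The shSRPK1 cells were transfected in the same manner with hairpin sequences against SRPK1 in pLKO.1, and the NT cells were untreated. All cells grew in DMEM with fetal bovine serum. The labels do not state which hairpin went into which shSRPK1 library, nor the time from transfection to harvest. No transfected control was used here, so transfection and construct changed together against NT, and oeSRPK1 and shSRPK1 cells received different vectors. The series text speaks of biological replicates but names no separate cultures, so a p-value here reflects how far these samples lie apart, part of which may be technical.

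ATF4 is a transcription factor whose messenger RNA is translated efficiently when the initiation factor eIF2 is phosphorylated, which happens under amino acid shortage, endoplasmic reticulum stress, viral double-stranded RNA or mitochondrial stress. The protein then binds composite elements shared by the C/EBP and ATF families and raises genes that make, import and charge amino acids onto tRNA, together with feedback and cell death genes such as DDIT3, TRIB3, CHAC1 and PPP1R15A. Because ATF4 protein is set largely by translation, the level of its messenger RNA and the levels of its targets need not move alike.

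The core of that composite element can be written TGATGNAA, where N is any base, and it was searched on both strands of the RefSeq promoter windows (GRCh38.p14, 250 bases before to 50 after each start). Promoter windows were listed for 37 of the 46 genes. In at least 1 window, 14 of the 37 (37.8%) held the motif, against 4.46% of all 27305 genes with a listed window. By window, 14 of 58 member windows held it, against 3.62% of 35116 windows. Because the members were listed as ATF4 targets, this difference could be fixed by the listing and is not a test. By role, 7 of 11 tRNA charging genes held it (AARS1, CARS1, GARS1, IARS1, MARS1, NARS1 and TARS1), as did 4 of 7 transporters (SLC3A2, SLC1A5, SLC1A4 and SLC7A1), CEBPG among 5 regulators, CHAC1 among 7 stress outputs, ASNS among 4 other amino acid enzymes and 0 of 3 serine and one-carbon enzymes. In the list of other cytosolic synthetase and cofactor genes, 0 of 9 held it, and in that of mitochondrial synthetases 1 of 13. In further lists outside the set, it lay in 5 of 14 other ATF4-linked genes, where TARS3 and NARS2 were placed, and 3 of 11 interferon genes. It also lay in 1 of 15 genes of eIF2, its kinases and regulators, 1 of 18 endoplasmic reticulum stress genes and 0 of 13 hypoxia genes. Stretches of 5 member promoters are shown because they belong to the members with the motif whose levels differed most between the 2 shSRPK1 libraries. They lie at chr15:40953221-40953325 (CHAC1, plus strand), chr7:97872413-97872532 (ASNS, minus strand), chr19:33374015-33374132 (CEBPG, plus strand), chr12:57488008-57488087 (MARS1, plus strand) and chr19:46784848-46784967 (SLC1A5, minus strand), each written 5′ to 3′ along its gene. Capitals mark the match, which in CHAC1 and MARS1 reads TTGCATCA, the motif as it lies on the opposite strand.
CHAC1: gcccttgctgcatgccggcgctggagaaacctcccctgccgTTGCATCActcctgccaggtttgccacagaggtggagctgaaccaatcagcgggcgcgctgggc
ASNS: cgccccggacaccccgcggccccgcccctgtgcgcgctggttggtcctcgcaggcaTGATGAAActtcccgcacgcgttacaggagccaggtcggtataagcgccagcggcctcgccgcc
CEBPG: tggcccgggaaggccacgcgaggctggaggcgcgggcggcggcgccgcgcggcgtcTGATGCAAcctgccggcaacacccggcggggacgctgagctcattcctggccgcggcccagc
MARS1: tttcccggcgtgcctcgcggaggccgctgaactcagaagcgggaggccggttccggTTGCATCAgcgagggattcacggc
SLC1A5: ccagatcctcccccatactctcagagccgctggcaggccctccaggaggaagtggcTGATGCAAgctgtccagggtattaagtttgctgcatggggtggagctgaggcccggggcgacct
A match describes these letters and does not show binding. The matches begin 209 bases before the start in CHAC1, 68 before it in ASNS, 42 in CEBPG, 4 in MARS1 and 97 in SLC1A5. Each distance is from the listed start of the window that holds the match. Other listed windows of ASNS, CEBPG and SLC1A5 lacked the motif. In SLC1A5 the window with the match (chr19:46784765-46785064) lay inside the gene, downstream of those without it (46787244-46787543 and 46788545-46788844).

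Gene reads numbered 22691215 and 3891549 in oeSRPK1, 13650909 and 10792385 in shSRPK1, and 9891606 and 13634038 in NT, so that oeSRPK1 2 was the shallowest library, where 3 counts stood for 0.774 normalised CPM (a gene's share of the library's gene reads, scaled by TMM). SRPK1 itself had 190.0 and 168 CPM in oeSRPK1, 113 and 139.9 in shSRPK1, and 152 and 140.2 in NT. Its log2 fold change against NT was -0.21 ± 0.14 in shSRPK1 (SE, edgeR adjusted p = 0.360) and 0.29 ± 0.14 in oeSRPK1 (edgeR adjusted p = 0.175). SRPK1 was thus called against NT in neither group, but it was called in oeSRPK1 against shSRPK1 (0.50 ± 0.14, edgeR adjusted p = 0.0377). Libraries of a group correlated at 0.984 in oeSRPK1, 0.975 in shSRPK1 and 0.992 in NT (log2 CPM over 14732 genes). Of 10 glioma line markers, VIM, CD44 and FN1 had at least 1124 CPM in every library, while S100B and SOX2 had 0 reads in all 6 and GFAP was near 0. The 13 skeletal muscle markers summed to 247 and 2949 CPM in oeSRPK1, 1.58 and 14.3 in shSRPK1, and 1.07 and 1.69 in NT. Each of the 45 tested genes of the ATF4 set differed by at most 0.29 (log2) between the 2 oeSRPK1 libraries. Both of these libraries held muscle transcripts, and the bearing of that on oeSRPK1 against NT was not tested. In bulk RNA, fewer cells of a kind and less RNA per cell cannot be told apart.

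The 2 shSRPK1 libraries differed from each other across almost the whole ATF4 set. In shSRPK1 1, 44 of the 45 genes were lower than in shSRPK1 2, by a median of -1.11 on the log2 scale, against -0.01 over all 14732 tested genes. At least 2-fold lower were 25 members, whereas 3.74% of all genes were that much lower and 7.23% were 2-fold apart in either direction, and 0 members were 2-fold higher. At least 1.5-fold lower were 39, against 10.7% of all genes. Between the 2 oeSRPK1 libraries 0 members were 2-fold apart (4% of all genes), and between the 2 NT libraries 0 (1.83% of all genes, largest member difference 0.33). These counts compare single libraries, and the set was taken up with a split between the hairpin libraries known, so they carry no test.

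Set against the mean of the NT libraries, the median member stood at 0.25 in oeSRPK1 1, 0.17 in oeSRPK1 2, -0.89 in shSRPK1 1 and 0.12 in shSRPK1 2 (log2). Every role took part: the median difference between shSRPK1 1 and shSRPK1 2 was -1.24 for regulators, -1.36 for stress outputs, -0.89 for serine and one-carbon enzymes, -1.24 for other amino acid enzymes, -1.13 for transporters and -0.97 for tRNA charging. ALDH18A1, which opens proline synthesis, was the exception, with 115 CPM in shSRPK1 1 and 90.9 in shSRPK1 2. The median difference was -1.09 over the 14 genes with the promoter motif and -1.13 over the 23 whose listed windows lacked it.

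**Figure D1:**
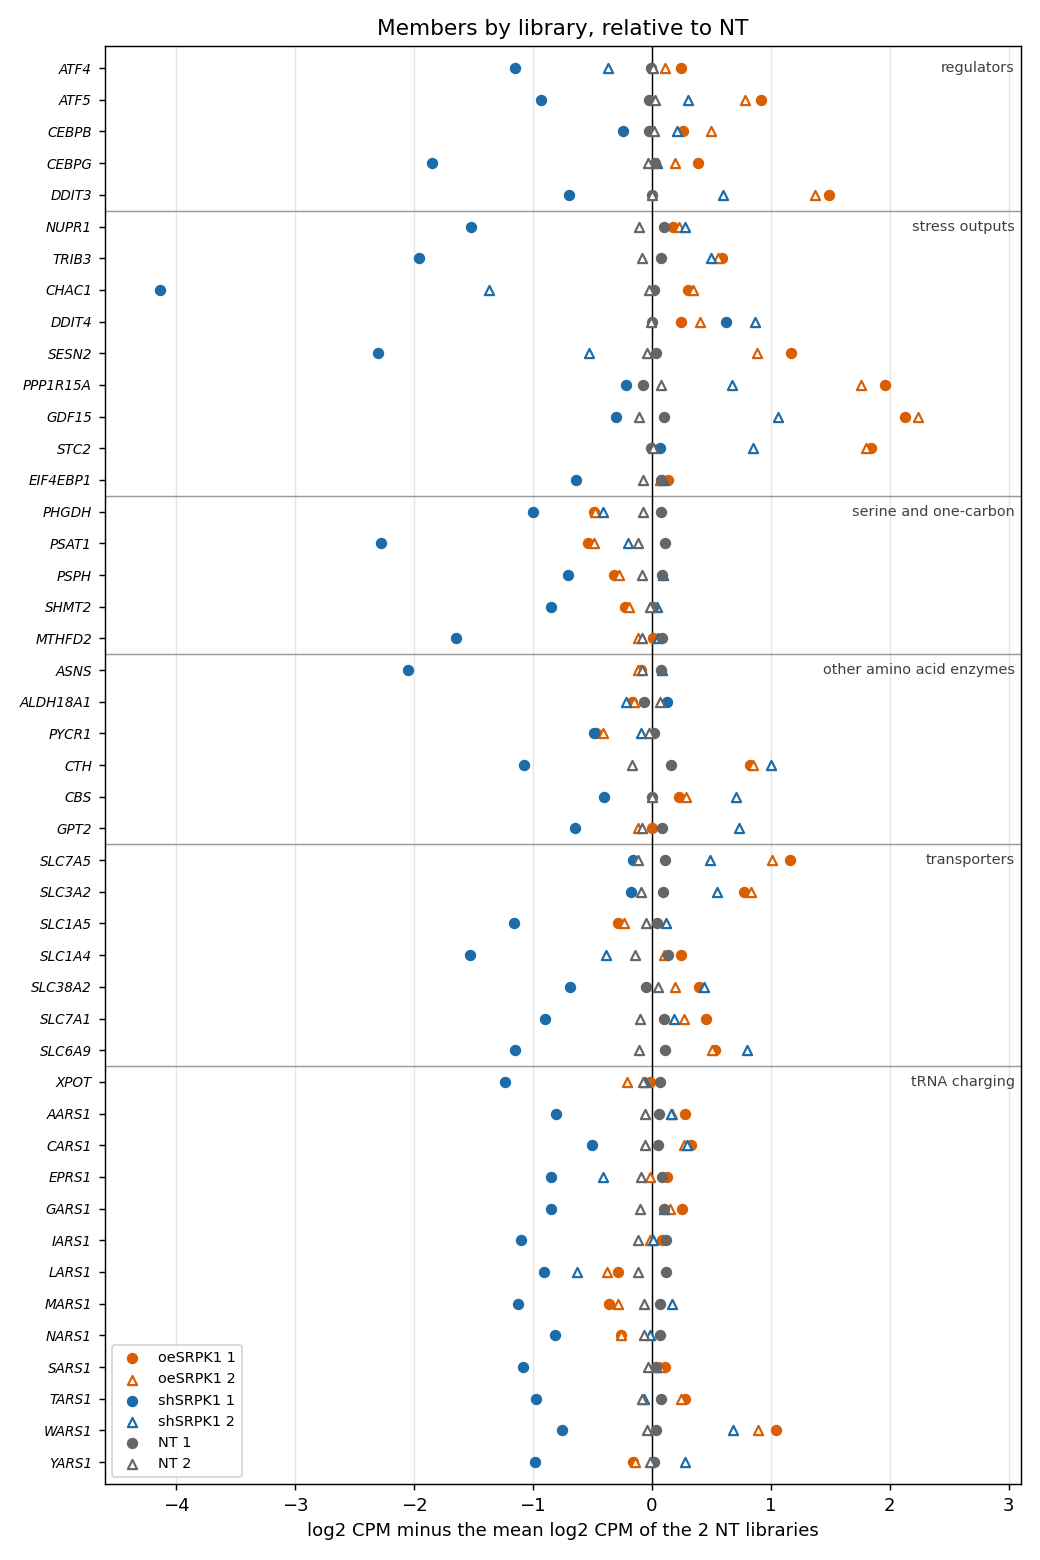
Each row is one of the 45 tested genes, by role, and each point is its log2 CPM in one library minus the mean log2 CPM of the 2 NT libraries (circle, replicate 1; triangle, replicate 2). The shSRPK1 1 circles lie left of the shSRPK1 2 triangles in 44 rows, while the 2 oeSRPK1 points differ by at most 0.29 in any row and the 2 NT points by at most 0.33.

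Against NT, the shSRPK1 group as a whole showed few calls. At an adjusted p under 0.05 in edgeR's quasi-likelihood test (2 libraries a group, Benjamini-Hochberg over 14732 genes), 1 member rose, DDIT4 (5.43% of all genes were called higher), and 1 fell, LARS1 (3.75% called lower). The member median was -0.26, against 0.01 over all genes. At an unadjusted p under 0.05 there were 1 higher and 6 lower, where 15.4% and 13.3% of all genes were. Groups did not overlap for 2 members higher and 9 lower, below the 28.8% and 28.7% of all genes. A fit of the shSRPK1 and NT libraries alone called 0 members in either direction (0.623% of 14279 genes higher and 0.28% lower). DESeq2 called 1 member higher and 4 lower (858 and 576 of 14732 genes), and limma-voom 1 higher and 2 lower (787 and 580 genes).

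In oeSRPK1 against NT, 5 members rose, PPP1R15A, GDF15, STC2, SLC7A5 and SLC3A2, and 0 fell, with a member median of 0.20 against 0.00 over all genes. Of all genes, 11.2% were called higher and 9.45% lower, so that the share of called members was near the background for rises and below it for falls. At an unadjusted p under 0.05 there were 8 members higher and 3 lower (18.8% and 16.9% of all genes). DESeq2 called 6 members higher and 0 lower (1474 and 1207 of 14732 genes), and limma-voom also called 6 and 0 (1715 and 1472 genes). The libraries did not overlap for 26 members higher and 12 lower, with 35.9% and 34.6% of all genes as the background.

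The fit of all 6 libraries took its spread partly from the shSRPK1 pair. Fitted on the oeSRPK1 and NT libraries alone, 20 members were called higher and 9 lower, where 21.6% of 14322 genes were called higher and 22.6% lower. The 9 lower ones were 4 of the serine enzymes (PHGDH, PSAT1, PSPH and SHMT2), the proline enzyme PYCR1, the neutral amino acid transporter SLC1A5 and the synthetases LARS1, MARS1 and NARS1. The higher ones included DDIT3 (1.41, edgeR adjusted p = 2.7e-09 in that fit), SESN2 (1.03, edgeR adjusted p = 4.4e-07) and WARS1 (0.95, edgeR adjusted p = 4.0e-07).

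In oeSRPK1 against shSRPK1, 7 members rose, ATF4, SESN2, PPP1R15A, GDF15, STC2, SLC7A5 and EPRS1, and 0 fell, with a member median of 0.50 against 0.00 over all genes. Of all genes, 11.5% were called higher and 11.3% lower. Unadjusted, 14 were higher and 1 lower at p under 0.05, where 19% of all genes were higher and 19% lower. The fit of these 2 groups alone called 2 members higher, PPP1R15A and STC2, and 0 lower (5.27% and 5.18% of 14413 genes). DESeq2 called 11 higher and 1 lower (1383 and 1390 of 14732 genes), and limma-voom 11 higher and 0 lower (1813 and 1711 genes). The libraries did not overlap for 22 members higher and 1 lower (31.8% and 30.5% of all genes). The comparisons share libraries with each other and are given side by side, not as support for one another.

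These calls depended on which libraries were fitted. Of the 14 member calls in the 3 comparisons, 12 were lost in edgeR without NT 1, 11 without NT 2, 14 without oeSRPK1 1, 11 without oeSRPK1 2, and 0 without shSRPK1 1 or shSRPK1 2. The library left alone in its group was then taken to vary as the other groups did. Without shSRPK1 1 or shSRPK1 2, the distance between those 2 libraries no longer entered the spread. The calls kept there therefore do not show that they hold across the hairpin libraries. The adjusted p of the lost calls is given gene by gene below.

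Among the regulators, ATF4 messenger RNA was lowest in the hairpin libraries. ATF4 (ENSG00000128272.13, GRCh38 chromosome 22, 39519695 to 39522685, plus strand) had 781 and 713 CPM in oeSRPK1, 296 and 511 in shSRPK1, and 654 and 662 in NT. Both shSRPK1 libraries lay below the other 4, and both oeSRPK1 libraries lay above NT. Against shSRPK1, ATF4 rose 1.85-fold in oeSRPK1 (95% interval 1.27 to 2.70, log2 0.89 ± 0.24, edgeR adjusted p = 0.0336). That call was lost without NT 1, NT 2, oeSRPK1 1 or oeSRPK1 2 (edgeR adjusted p 0.0776 to 0.228) and in a fit of the 2 groups alone (edgeR adjusted p = 0.0807), and the log2 value was 1.29 without shSRPK1 2 and 0.51 without shSRPK1 1. Against NT, shSRPK1 gave -0.71 ± 0.23 (edgeR adjusted p = 0.0989) and oeSRPK1 gave 0.18 ± 0.23 (edgeR adjusted p = 0.617).

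DDIT3 (CHOP), a C/EBP family factor tied to stress-induced cell death, had 309 and 285 CPM in oeSRPK1, 67.9 and 167 in shSRPK1, and 109.8 and 110.0 in NT. The oeSRPK1 libraries were highest and NT lay between the 2 hairpin libraries. Its log2 fold change was 1.44 ± 0.40 in oeSRPK1 against NT (edgeR adjusted p = 0.0544) and 1.34 ± 0.39 against shSRPK1 (edgeR adjusted p = 0.0601). DDIT3 shares 355 exon bases with MARS1 on the opposite strand (GENCODE 29), and the strand setting of the counts was not stated, so their reads may be mixed.

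CEBPG, a partner of ATF4, had 151 and 132 CPM in oeSRPK1, 31.8 and 118 in shSRPK1, and 117 and 112 in NT. Only shSRPK1 1 stood apart, at 0.269 times the level of shSRPK1 2 (95% counting interval 0.240 to 0.300). ATF5, another factor under translational control, had 22.2 and 20.1 CPM in oeSRPK1, 6.03 and 14.4 in shSRPK1, and 11.4 and 11.8 in NT, with NT again between the hairpin libraries. It shares 626 exon bases with NUP62 on the opposite strand. CEBPB, which binds the same composite elements, varied least, with 72.0 and 84.6 CPM in oeSRPK1, 50.6 and 69.4 in shSRPK1, and 59.1 and 60.8 in NT.

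Stress outputs held the widest splits. CHAC1, which degrades glutathione, had 67.0 and 69.2 CPM in oeSRPK1, 2.94 and 20.9 in shSRPK1, and 55.1 and 53.5 in NT. Both hairpin libraries were far below the other 4, and shSRPK1 1 held 0.141 times the level of shSRPK1 2 (95% counting interval 0.0974 to 0.198). The group value of -2.23 ± 0.80 in shSRPK1 against NT missed the threshold (edgeR adjusted p = 0.158).

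TRIB3, a pseudokinase that curbs ATF4 activity, had 382 and 372 CPM in oeSRPK1, 65.0 and 359 in shSRPK1, and 268 and 239.5 in NT. It was above both NT libraries in shSRPK1 2 and far below them in shSRPK1 1. SESN2, a sestrin that restrains mTORC1 when leucine is short, had 132 and 108 CPM in oeSRPK1, 11.8 and 40.6 in shSRPK1, and 60.1 and 57.1 in NT. The 3 groups did not overlap. SESN2 rose 4.66-fold in oeSRPK1 against shSRPK1 (95% interval 1.72 to 12.6, edgeR adjusted p = 0.0481), a call lost without NT 1, NT 2, oeSRPK1 1 or oeSRPK1 2 (edgeR adjusted p 0.0697 to 0.148), without a filter on low counts (edgeR adjusted p = 0.229) and in a fit of the 2 groups alone (edgeR adjusted p = 0.0809). Its log2 fold change in that comparison was 2.22 with all libraries, 3.33 without shSRPK1 2 and 1.55 without shSRPK1 1.

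NUPR1, a small chromatin-associated stress protein, had 164 and 170.3 CPM in oeSRPK1, 50.4 and 176 in shSRPK1, and 156 and 135 in NT. The level was lowest in shSRPK1 1, and the other 5 libraries ran from 135 to 176 CPM.

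PPP1R15A (GADD34), the phosphatase subunit that reverses eIF2 phosphorylation, had 646 and 562 CPM in oeSRPK1, 143 and 265 in shSRPK1, and 157 and 175 in NT. It rose 3.63-fold in oeSRPK1 against NT (95% interval 2.31 to 5.71, edgeR adjusted p = 0.0064) and 2.96-fold against shSRPK1 (1.89 to 4.64, edgeR adjusted p = 0.0106). The first call was lost without NT 1, NT 2 or oeSRPK1 1 (edgeR adjusted p 0.0597 to 0.0792) and the second without oeSRPK1 1 (edgeR adjusted p = 0.107).

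STC2, a secreted glycoprotein, had 2082 and 2024 CPM in oeSRPK1, 609 and 1045 in shSRPK1, and 577 and 583 in NT. Both oeSRPK1 libraries were about level with each other and above the other 4. STC2 rose 3.54-fold in oeSRPK1 against NT (95% interval 2.41 to 5.20, edgeR adjusted p = 0.0030) and 2.48-fold against shSRPK1 (1.70 to 3.62, edgeR adjusted p = 0.0092). Without NT 1 or oeSRPK1 1 the first missed the threshold (edgeR adjusted p 0.0531 to 0.0578), and without oeSRPK1 1 or oeSRPK1 2 the second did (edgeR adjusted p 0.0606 to 0.116).

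GDF15, a stress cytokine of the TGF-beta family, had 260.1 and 281 CPM in oeSRPK1, 48.2 and 124 in shSRPK1, and 63.8 and 55.2 in NT. It rose 4.54-fold in oeSRPK1 against NT (95% interval 2.12 to 9.74, edgeR adjusted p = 0.0250) and 3.14-fold against shSRPK1 (1.49 to 6.63, edgeR adjusted p = 0.0473). Both calls were lost without NT 1, NT 2, oeSRPK1 1 or oeSRPK1 2 (edgeR adjusted p 0.0581 to 0.146 against NT and 0.0887 to 0.142 against shSRPK1). Both also missed the threshold without a filter on low counts (edgeR adjusted p = 0.161 and 0.248), and the call against shSRPK1 did so in a fit of those 2 groups alone (edgeR adjusted p = 0.0764).

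DDIT4 (REDD1), an mTORC1 inhibitor that also answers to hypoxia and glucocorticoids, was highest in the hairpin libraries. It had 655 and 731 CPM in oeSRPK1, 850.2 and 1006 in shSRPK1, and 553 and 549 in NT, and the 3 groups did not overlap. It rose 1.68-fold in shSRPK1 against NT (95% interval 1.34 to 2.11, edgeR adjusted p = 0.0211), a call lost without any one of the NT or oeSRPK1 libraries (edgeR adjusted p 0.0772 to 0.262) and in a fit of the 2 groups alone (edgeR adjusted p = 0.0794). Of its exon bases, 847 are shared with DDIT4-AS1 on the opposite strand. EIF4EBP1, the translation repressor, differed little outside shSRPK1 1, which held 69.9 CPM against 116 in shSRPK1 2.

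**Figure D2:**
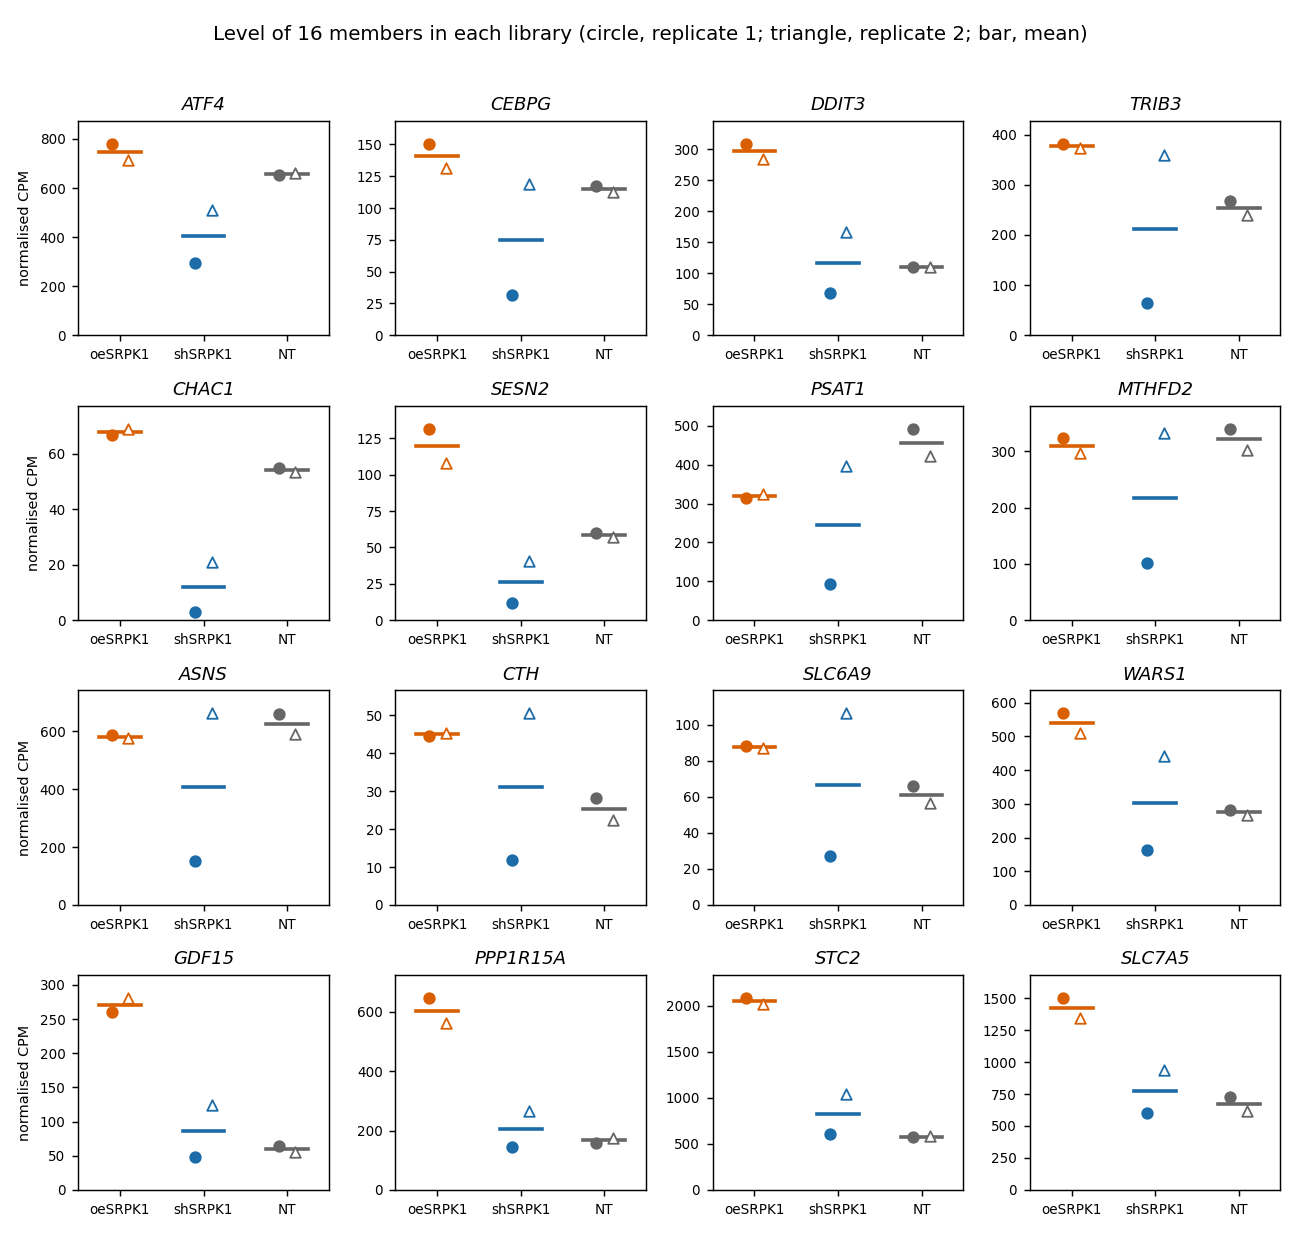
Normalised CPM of 16 members in each library, by group, with the axis from 0 (circle, replicate 1; triangle, replicate 2; bar, mean of 2). CHAC1 and SESN2 are below NT in both shSRPK1 libraries, TRIB3, CTH, SLC6A9 and WARS1 straddle NT, and GDF15, PPP1R15A, STC2 and SLC7A5 are highest in both oeSRPK1 libraries.

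Of the 5 tested enzymes of serine and one-carbon metabolism, 0 were called against NT in either transfected group by edgeR with all libraries. At an unadjusted p under 0.05, 0 were higher and 1 was lower in each group. Over all tested genes, 3.75% to 11.2% were called in a given direction, and 13.3% to 18.8% at that unadjusted p. DESeq2 called 1 of the 5, PHGDH, lower in shSRPK1 (log2 -0.68), and 576 of 14732 genes. The median log2 fold change of the 5 was -0.30 in oeSRPK1 and -0.57 in shSRPK1. Against the NT mean it was -0.99 in shSRPK1 1 and 0.05 in shSRPK1 2. PHGDH, which commits glycolytic carbon to serine, had 287 and 289 CPM in oeSRPK1, 202 and 303 in shSRPK1, and 424 and 382 in NT. All 4 transfected libraries lay below both NT libraries. The log2 fold changes against NT were -0.49 ± 0.19 in oeSRPK1 (edgeR adjusted p = 0.106) and -0.67 ± 0.19 in shSRPK1 (edgeR adjusted p = 0.0621), and the first was called in the fit of oeSRPK1 and NT alone (-0.51, edgeR adjusted p = 2.1e-04).

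PSAT1, the next enzyme of the pathway, had 314 and 325 CPM in oeSRPK1, 93.8 and 397 in shSRPK1, and 493 and 421 in NT. It was also below NT in all 4, with shSRPK1 1 lowest by a wide margin. PSPH, which completes serine synthesis, had 36.7 and 37.7 CPM in oeSRPK1, 28.0 and 48.8 in shSRPK1, and 48.5 and 43.1 in NT. SHMT2, the mitochondrial serine hydroxymethyltransferase, had 267 and 273 CPM in oeSRPK1, 173 and 322 in shSRPK1, and 314 and 309 in NT. For these last 2 genes oeSRPK1 was below NT and shSRPK1 straddled it.

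MTHFD2, a mitochondrial folate enzyme, had 324 and 297 CPM in oeSRPK1, 102 and 333 in shSRPK1, and 341 and 303 in NT. Only shSRPK1 1 lay outside the range of the rest, although 1324 of the exon bases of MTHFD2 are shared with SLC4A5 on the opposite strand. ALDH1L2, which oxidises mitochondrial formyl-tetrahydrofolate, was at 0.359 and 1.03 CPM in oeSRPK1, 0.302 and 0.286 in shSRPK1, and 0.291 and 0.0705 in NT, close to the level of 3 counts.

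Among other amino acid enzymes, ASNS showed the split most plainly. ASNS, asparagine synthetase, had 587 and 578 CPM in oeSRPK1, 151 and 662 in shSRPK1, and 661 and 590.4 in NT. The other 5 libraries lay within a narrow band and shSRPK1 1 held 0.227 times the level of shSRPK1 2 (95% counting interval 0.216 to 0.239). ASNS shares 1985 exon bases, 44.6% of its own, with the noncoding gene AC079781.5 on the same strand, so its reads could be divided between them. CTH, cystathionine gamma-lyase of cysteine synthesis, had 44.6 and 45.4 CPM in oeSRPK1, 11.8 and 50.5 in shSRPK1, and 28.2 and 22.4 in NT. It was above NT in oeSRPK1 and in shSRPK1 2 and below NT in shSRPK1 1. PYCR1, the last step of proline synthesis, had 142 and 147 CPM in oeSRPK1, 139.9 and 183 in shSRPK1, and 199 and 193 in NT.

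The remaining enzymes were GPT2, mitochondrial alanine aminotransferase, and CBS, which opens transsulfuration. GPT2 had 125 and 116 CPM in oeSRPK1, 80.1 and 208 in shSRPK1, and 133 and 118 in NT. CBS had 20.4 and 21.2 CPM in oeSRPK1, 13.1 and 28.4 in shSRPK1, and 17.3 in both NT libraries, and its reads are uncertain because the genome holds a near-identical copy, CBSL.

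Of the transporters, the 2 chains of the large neutral amino acid exchanger rose in oeSRPK1. SLC7A5 (LAT1), its light chain, had 1499 and 1346 CPM in oeSRPK1, 599 and 941 in shSRPK1, and 723 and 619 in NT. It rose 2.12-fold in oeSRPK1 against NT (log2 1.08 ± 0.22, edgeR adjusted p = 0.0132) and 1.85-fold against shSRPK1 (95% interval 1.31 to 2.61, edgeR adjusted p = 0.0248). SLC3A2 (CD98), the heavy chain, had 975 and 1016 CPM in oeSRPK1, 504 and 832 in shSRPK1, and 607 and 532 in NT. It rose 1.75-fold in oeSRPK1 against NT (95% interval 1.22 to 2.51, edgeR adjusted p = 0.0404). All 3 calls were lost without NT 1, NT 2, oeSRPK1 1 or oeSRPK1 2, with edgeR adjusted p of 0.0692 to 0.152 (SLC7A5 against NT), 0.0611 to 0.209 (SLC7A5 against shSRPK1) and 0.171 to 0.244 (SLC3A2). The SLC7A5 call against shSRPK1 was also lost in a fit of those 2 groups alone (edgeR adjusted p = 0.0664).

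SLC6A9 (GlyT1), a glycine transporter, had 88.2 and 87.0 CPM in oeSRPK1, 27.4 and 106 in shSRPK1, and 65.9 and 56.6 in NT. NT lay between the hairpin libraries here too. SLC1A4, a carrier of neutral amino acids, had 64.3 and 58.3 CPM in oeSRPK1, 18.7 and 41.6 in shSRPK1, and 59.8 and 49.4 in NT, so both hairpin libraries were below all others. SLC7A1, the cationic amino acid transporter, had 249 and 219 CPM in oeSRPK1, 97.5 and 207 in shSRPK1, and 194 and 169 in NT. SLC38A2 and SLC1A5, which carry glutamine and other neutral amino acids, differed between shSRPK1 1 and shSRPK1 2 by -1.13 and -1.28 (log2).

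The tRNA charging genes moved as a block between the hairpin libraries, with differences from -1.43 (WARS1) to -0.27 (LARS1) and all 13 lower in shSRPK1 1. WARS1, the tryptophanyl-tRNA synthetase and an interferon-induced gene as well, had 568 and 510.4 CPM in oeSRPK1, 163 and 440.5 in shSRPK1, and 282 and 267 in NT. It was above NT in 3 transfected libraries and below it in shSRPK1 1. TARS1, for threonine, had 329 and 321 CPM in oeSRPK1, 138 and 259 in shSRPK1, and 287 and 257 in NT.

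LARS1, for leucine, was below NT in all 4 transfected libraries. It had 209 and 197 CPM in oeSRPK1, 136 and 165 in shSRPK1, and 277 and 235 in NT, and the 3 groups did not overlap. LARS1 fell to 0.588 times NT in shSRPK1 (95% interval 0.468 to 0.738, edgeR adjusted p = 0.0206), a call lost without any one of the NT or oeSRPK1 libraries (edgeR adjusted p 0.0758 to 0.262) and in a fit of the 2 groups alone (edgeR adjusted p = 0.0789). EPRS1, which charges both glutamate and proline, had 412 and 374 CPM in oeSRPK1, 211 and 284 in shSRPK1, and 402 and 356 in NT. It rose 1.59-fold in oeSRPK1 against shSRPK1 (95% interval 1.22 to 2.07, edgeR adjusted p = 0.0260), a call lost without NT 1, NT 2, oeSRPK1 1 or oeSRPK1 2 (edgeR adjusted p 0.0668 to 0.227) and in a fit of the 2 groups alone (edgeR adjusted p = 0.0684).

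The other 8 synthetases and XPOT shared one shape, with shSRPK1 1 below the remaining 5 libraries. Their log2 differences between shSRPK1 1 and shSRPK1 2 were -1.29 for MARS1, -1.26 for YARS1, -1.18 for XPOT, -1.12 for SARS1, -1.11 for IARS1, -0.97 for AARS1, -0.96 for GARS1, -0.80 for CARS1 and -0.80 for NARS1. None of these 9 was called in any of the 3 comparisons in edgeR with all libraries. Over all tested genes, 3.75% to 11.5% were called in a given direction of a comparison.

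Per kilobase of exon (RPKM, GENCODE 29 exon unions), the NT levels spanned a wide range. SLC38A2 had the highest mean at 308 RPKM, then DDIT4 at 268 and ATF4 at 262, with PSAT1 at 209 and SLC1A5 at 167, and the lowest were ATF5 at 3.94, CBS at 2.56 and ALDH1L2 at 0.0212. DDIT4 and ATF4 lay closer to each other than the NT libraries of SLC38A2 did (298 and 318 RPKM). Among the synthetases AARS1 was highest at 166 RPKM and CARS1 lowest at 21.3.

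Taken one at a time, the 2 hairpin libraries gave different pictures against NT. With shSRPK1 1 alone, 36 members were called lower and 1 higher (edgeR adjusted p under 0.05; 14.2% of all genes were called lower and 14.9% higher). With shSRPK1 2 alone, 15 were called higher and 7 lower (13.9% higher and 12% lower). In these fits the single library was taken to vary as the NT and oeSRPK1 pairs did, and the distance between the 2 hairpin libraries shows that this understates the spread of shSRPK1.

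Lower in both fits were 7 members, ATF4, CHAC1, SESN2, PHGDH, SLC1A4, EPRS1 and LARS1, and higher in both was DDIT4, where 5.83% of the 15895 genes tested in either fit were lower in both and 6.98% higher in both. Called in opposite directions were 8, DDIT3, TRIB3, CTH, GPT2, SLC38A2, SLC6A9, CARS1 and WARS1, all lower with shSRPK1 1 and higher with shSRPK1 2, as against 0.9% of genes in opposite directions. CTH gave -1.09 with shSRPK1 1 and 1.01 with shSRPK1 2 (log2), and TRIB3 gave -1.96 and 0.50. A further 21 members were called only with shSRPK1 1 (15.2% of genes), 6 only with shSRPK1 2 (11% of genes; PPP1R15A, GDF15, STC2, CBS, SLC7A5 and SLC3A2, all higher) and 3 with neither (CEBPB, ALDH18A1 and ALDH1L2).

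The same held where oeSRPK1 was set against each hairpin library. Against shSRPK1 1 alone, 42 members were called higher in oeSRPK1 and 2 lower (18% and 20.9% of all genes). Against shSRPK1 2 alone, 12 were called higher and 11 lower (16.7% and 19.4% of all genes).

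**Figure D3:**
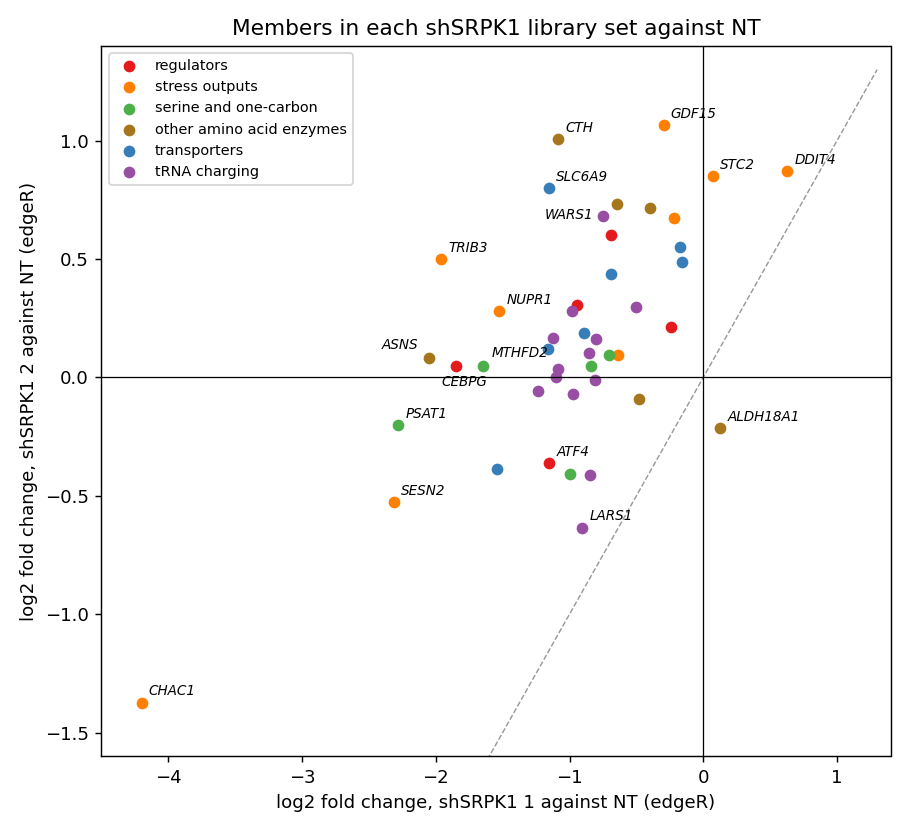
Log2 fold change of each of the 45 members with shSRPK1 1 alone against NT (horizontal) and with shSRPK1 2 alone against NT (vertical), from edgeR, coloured by role; the dashed line marks equal values. CHAC1 is at the lower left in both, ASNS, PSAT1 and CEBPG are low with shSRPK1 1 and near 0 with shSRPK1 2, CTH and SLC6A9 are of opposite sign, and ALDH18A1 alone lies right of the line.

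Genes of the wider pathway were compared in the same way. Their counts stand beside the same background as the members, 5.43% of all genes called higher and 3.75% lower in shSRPK1 against NT, 11.2% and 9.45% in oeSRPK1 against NT, and 11.5% and 11.3% in oeSRPK1 against shSRPK1. The list of eIF2 kinases, eIF2 and its regulators (17 tested) had a median difference between the hairpin libraries of -0.04. In it 0 genes were 2-fold apart, where 7.23% of all genes were. In that list 1 gene rose and 0 fell in shSRPK1 against NT, 2 rose and 1 fell in oeSRPK1 against NT, and 1 rose and 3 fell in oeSRPK1 against shSRPK1. Each of these counts fell to 0 in at least 1 of the fits that left out a library. EIF2AK2 (PKR) is the double-stranded RNA sensor among the eIF2 kinases and itself an interferon gene. It had 529 and 432 CPM in oeSRPK1, 343 and 468 in shSRPK1, and 166 and 177 in NT. Against NT it rose by 1.49 in oeSRPK1 (log2, edgeR adjusted p = 0.0022) and by 1.24 in shSRPK1 (edgeR adjusted p = 0.0100). In a fit of shSRPK1 and NT alone, the rise in shSRPK1 missed the threshold (edgeR adjusted p = 0.0535). The first EIF2AK2 call was lost without oeSRPK1 1 (edgeR adjusted p = 0.0505) and the second without NT 1 or NT 2 (edgeR adjusted p = 0.177 and 0.107). EIF2AK3 (PERK), the endoplasmic reticulum kinase, rose by 0.52 in oeSRPK1 against NT (log2, edgeR adjusted p = 0.0209), a call lost without any one NT or oeSRPK1 library (edgeR adjusted p 0.0852 to 0.211).

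A list of 18 other ATF4-linked genes had 16 tested. In it 7 were 2-fold lower in shSRPK1 1 than in shSRPK1 2 and 0 were 2-fold higher, with a median of -0.79. Over all 14732 tested genes, 551 were 2-fold lower and 514 were 2-fold higher. INHBE (-3.35), CCPG1 (-2.11) and ATF3 (-1.70), chosen after their values were seen, were among the 7. In this list 0 genes were called in shSRPK1 against NT, while in each of the other comparisons VLDLR, a lipoprotein receptor, rose and SLC6A6, the taurine transporter, fell. Without oeSRPK1 1, SLC6A6 was called in neither (edgeR adjusted p = 0.243 against NT and 0.110 against shSRPK1) and VLDLR was not called against NT (edgeR adjusted p = 0.0505). ATF3 had 131 and 109 CPM in oeSRPK1, 19.7 and 64.3 in shSRPK1, and 32.4 and 31.3 in NT.

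In the synthetase lists outside the set the difference was small. TARS3 and NARS2 were placed with the other ATF4-linked genes and are not counted in these lists. The 11 other genes of cytosolic tRNA charging had a median difference between the hairpin libraries of -0.10, and 1 of them, AIMP2 (-1.21), was 2-fold apart. The 16 mitochondrial synthetases had a median of 0.06 with 0 genes 2-fold apart, where 7.23% of all genes were. In edgeR, 0 and 1 of the other cytosolic genes rose and fell in oeSRPK1 against NT (QARS1 fell), and 0 and 2 in oeSRPK1 against shSRPK1 (HARS1 and VARS1 fell). Of the mitochondrial synthetases, EARS2 and VARS2 fell in oeSRPK1 against NT and VARS2 fell against shSRPK1. All of these synthetase calls were lost without oeSRPK1 1 (edgeR adjusted p 0.224 for QARS1, 0.146 for EARS2, 0.240 for VARS2 against NT and 0.0911 against shSRPK1, 0.126 for HARS1 and 0.171 for VARS1). No synthetase of these lists was called in shSRPK1 against NT, where 1 of each list was higher and 1 and 4 were lower at an unadjusted p under 0.05 (15.4% and 13.3% of all genes).

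**Figure D4:**
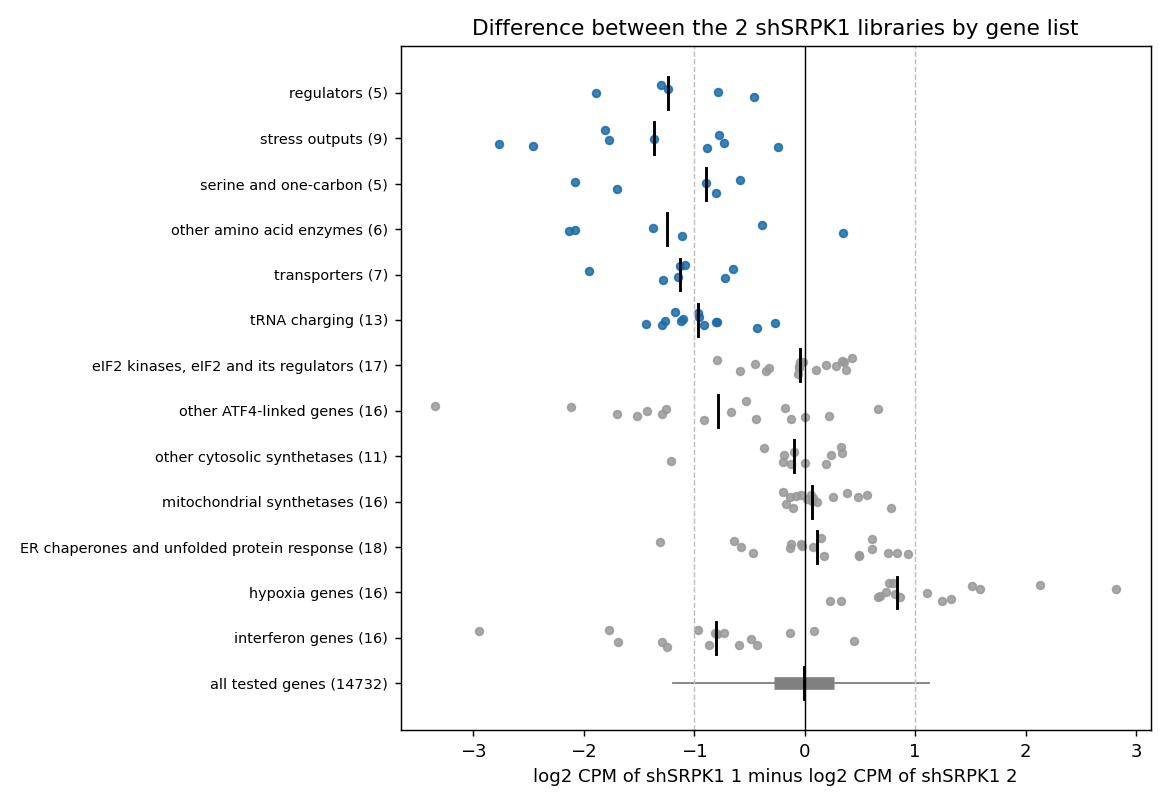
Each point is a gene, placed by log2 CPM in shSRPK1 1 minus log2 CPM in shSRPK1 2, in rows by list; black ticks are medians, dashed lines mark 2-fold, and the bottom bar gives the middle 50% and 95% of all 14732 tested genes. The 6 roles of the ATF4 set (blue) have medians from -1.36 to -0.89. The eIF2 list and the synthetase lists outside the set have medians near 0, and hypoxia genes lie on the other side at 0.84.

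Other stress programmes also differed between the hairpin libraries, and their part in the split of the ATF4 set was not tested. All 16 hypoxia genes were higher in shSRPK1 1 (median 0.84, 7 of them 2-fold). Lower in it were 14 of 16 interferon genes (median -0.80, 5 of them 2-fold). Over all 14732 tested genes, 514 were 2-fold higher in shSRPK1 1 and 551 were 2-fold lower. The NT libraries also differed in these lists, by a median of -0.34 with 1 gene 2-fold apart for hypoxia and of -0.68 with 4 genes 2-fold apart for interferon (NT 1 minus NT 2, largest gap 2.44). The 18 genes of endoplasmic reticulum chaperones and the unfolded protein response had a median difference of 0.11 with 1 gene 2-fold apart. HSPA5 (BiP), the chief chaperone of that compartment, had 3963 and 3844 CPM in oeSRPK1, 3661 and 3731 in shSRPK1, and 2173 and 2152 in NT. It rose by 0.85 in oeSRPK1 (log2, edgeR adjusted p = 0.0062) and by 0.77 in shSRPK1 against NT (edgeR adjusted p = 0.0190), and the hairpin libraries differed by -0.03. In a fit of shSRPK1 and NT alone, the rise in shSRPK1 missed the threshold (edgeR adjusted p = 0.0794). Both HSPA5 calls were lost without any one NT or oeSRPK1 library (edgeR adjusted p 0.0567 to 0.111 and 0.0775 to 0.262).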

How the data were processed

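The 6 libraries were grouped by the labels into oeSRPK1, shSRPK1 and NT. For each library the authors deposited a table of raw whole-number counts of reads in genes. The submitters' processing notes name FastQC, Trimmomatic, STAR 2.5.3 and the build hg38. How reads were counted, with which annotation and on which strand is not given in the sources used here. The 5 entries of each table that name no gene (reads in no feature 8.13% to 11.1%, in several places 11.95% to 13.1%) were left aside.

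The tests used edgeR 4.0.16 (R 4.3.3) on 14732 genes kept by filterByExpr (minimum count 10, minimum total 15), together 99.8% of gene reads. After TMM scaling, glmQLFit (robust) and glmQLFTest used all 6 libraries, with a Benjamini-Hochberg adjusted p under 0.05 as the threshold. For CPM the TMM-scaled library size was the divisor, and a prior count of 2 was added before taking log2. Ratios of 2 libraries have 95% counting intervals, and these and the level of 3 counts cover counting error only. Alternatives were DESeq2 size factors, plain CPM, no filter, a CPM of 5 in 2 libraries, DESeq2 1.42.0, limma-voom (limma 3.58.1), a fit of only the groups compared, the replicate number as a block, thinning to 3891549 reads and leaving out each library. The steps were tested on simulated data.

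Members, pathway lists and tests were chosen with earlier results of these data known, including the split between the shSRPK1 libraries. Values in every library are given for ATF4, for up to 4 members of each role with the smallest p in any comparison and for the 10 with the largest ratio between the shSRPK1 libraries. Other members are described by role, although GPT2, CBS and ALDH1L2 also have values in every library. From each pathway list up to 4 genes with the smallest p could be named. ATF3, INHBE, CCPG1 and AIMP2 were named outside that rule. Gene positions and exon overlaps are from GENCODE 29, and promoter sequences from RefSeq (GRCh38.p14).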

Additional observations from a re-analysis of the deposited data

Results flagged for a closer look

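The 13 skeletal muscle markers, outside the ATF4 set, summed to 247 normalised CPM in oeSRPK1 1 and 2949 in oeSRPK1 2, above the 1.07 and 1.69 CPM of the untreated NT libraries.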

How the results depend on the processing

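The count of 25 members 2-fold apart between the shSRPK1 libraries was the same with DESeq2 size factors, plain CPM, thinning to the shallowest library and the stricter filter, and was 39 at 1.5-fold. Counts of called members depended more on the fit. Without a filter, shSRPK1 against NT had 2 members higher and 6 lower (1541 and 1075 of 28529 genes). There oeSRPK1 against NT had 5 higher and 3 lower (1892 and 2179 genes), and oeSRPK1 against shSRPK1 10 higher and 1 lower (1824 and 2615 genes). DESeq2 gave 1 higher and 4 lower in shSRPK1 against NT (858 and 576 of 14732 genes), with 11 higher and 1 lower in oeSRPK1 against shSRPK1 (1383 and 1390 genes). In the same places limma-voom gave 1 higher and 2 lower (787 and 580 genes), and 11 higher and 0 lower (1813 and 1711 genes). Fitting only the groups compared gave 0 higher and 0 lower in shSRPK1 against NT (89 and 40 of 14279 genes). It gave 20 higher and 9 lower in oeSRPK1 against NT (3091 and 3242 of 14322 genes), and 2 higher and 0 lower in oeSRPK1 against shSRPK1 (759 and 746 of 14413 genes). Over the fits that left out 1 library, members higher numbered 0 to 15 and members lower 0 to 36 in shSRPK1 against NT, 0 to 19 and 0 to 9 in oeSRPK1 against NT, and 0 to 42 and 0 to 11 in oeSRPK1 against shSRPK1. With the replicate number as a block, 1 member was higher and 1 lower in shSRPK1 against NT (624 and 382 of 14732 genes). In that fit 6 and 0 were called in oeSRPK1 against NT (1467 and 1172 genes), and 9 and 0 in oeSRPK1 against shSRPK1 (1451 and 1395 genes). Same-numbered libraries of different groups did not deviate together (correlations 0.01, -0.02 and 0.02). Differences particular to a single library could hide a shared factor, so these values do not settle whether the numbers mark a pairing. The labels do not state it. Counts over the pathway lists fell by more than 1.5 times for 18 of them without NT 1, 17 without NT 2, 22 without oeSRPK1 1 and 18 without oeSRPK1 2, and over all genes 24 rather than 800 were higher in shSRPK1 against NT without NT 1. Among members named by the rule, some called values changed sign with the hairpin library left out. In shSRPK1 against NT, the log2 fold change without shSRPK1 2 and without shSRPK1 1 was -0.69 and 0.60 for DDIT3, -1.09 and 1.01 for CTH, -0.75 and 0.68 for WARS1, -1.16 and 0.80 for SLC6A9, and -1.96 and 0.50 for TRIB3. Among other members it was -0.64 and 0.73 for GPT2, -0.69 and 0.44 for SLC38A2 and -0.50 and 0.30 for CARS1. In oeSRPK1 against shSRPK1 it was 0.37 and -0.43 for PSPH, 1.72 and -0.35 for PSAT1, 0.59 and -0.29 for SHMT2, and 1.64 and -0.31 for SLC6A9. The cause was not tested. Depth limits ALDH1L2, and oeSRPK1 2 most of all, where 3 counts stand for 0.774 CPM.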

Other observations

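Several hypoxia genes rose in both transfected groups, and between the hairpin libraries they differed in the direction opposite to the ATF4 set. In edgeR (adjusted p under 0.05), 7 of 16 rose in oeSRPK1 against NT and 6 in shSRPK1 against NT, and 0 fell in either, where 11.2% and 5.43% of all genes were called higher. These counts ran from 0 to 14 and from 0 to 15 when 1 library was left out, and both were 0 without NT 1. ADM, a vasodilator peptide, had 195 and 227 CPM in oeSRPK1, 697 and 384 in shSRPK1, and 118 and 146 in NT. SLC2A3, a neuronal-type glucose transporter, had 181 and 166 CPM in oeSRPK1, 379 and 217 in shSRPK1, and 76.2 and 90.7 in NT. For both genes the 3 groups did not overlap, with shSRPK1 highest.

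Interferon genes rose in both groups as well, 14 of 16 in oeSRPK1 and 12 of 16 in shSRPK1 against NT (edgeR adjusted p under 0.05, with the same background), and 8 to 14 and 8 to 13 rose when 1 library was left out. The 2 NT libraries differed from each other by a median of -0.68 over these 16 genes. OAS1, a sensor of double-stranded RNA, had 369.9 and 329 CPM in oeSRPK1, 291 and 393 in shSRPK1, and 15.9 and 27.8 in NT. OAS3, of the same family, had 1125 and 949 CPM in oeSRPK1, 756 and 712 in shSRPK1, and 58.5 and 94.4 in NT, and its hairpin libraries were near level.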
